A study of Homo sapiens with 6 samples.

Results

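Cholesterol is made from acetyl-CoA through mevalonate, the isoprenoid diphosphates, squalene and lanosterol, and most genes of this route are switched on together when sterol is scarce. The 32 genes described here were chosen by gene symbol, by a rule that uses no measured value but was written with earlier results of these data known, as enzymes of that route and its sterol regulators, and make up 32 of the 20824 genes in the deposited table. They fall into 19 synthesis enzymes, 5 genes of the SREBP system (*SREBF2*, *SREBF1*, *SCAP*, *INSIG1* and *INSIG2*), 4 genes of sterol transport and NADPH supply (*STARD4*, *NPC1*, *NPC1L1* and *IDH1*) and 4 genes of the LXR arm (*NR1H3*, *ABCA1*, *ABCG1* and *MYLIP*). A mean of at least 0.5 RPKM, the filter used for testing, was reached by 30 of them, and *NPC1L1* and *ABCG1* stayed below it. RPKM, the deposited unit, is a read number divided by transcript length and by the library's alignments, so that levels can be set side by side between genes.

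21NT is a breast line that the study uses as a model of ductal carcinoma in situ, the non-invasive stage. It was stably transfected with an empty pcDNA3.1 vector (EV) or with the same vector carrying TBX3iso1 or TBX3iso2, splice isoforms of the T-box transcription factor TBX3, to ask which transcripts change when either isoform is overexpressed. Resistant clones of each transfection were pooled into 1 line, all 3 lines grew in the same medium with 10% serum, insulin at 1 µg/ml, EGF at 12.5 ng/ml, hydrocortisone at 2.8 µM and G418, and RNA was taken at 80% confluence. There were 2 libraries per line, 6 in all, and the sources do not say that they came from separate cultures, so the SDs and p-values may cover technical spread only.

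SREBP2 and SREBP1, the products of *SREBF2* and *SREBF1*, are transcription factors held in the endoplasmic reticulum by SCAP and the INSIG proteins when sterol is plentiful. Low sterol lets SCAP carry them to the Golgi, where they are cut and released to the nucleus. SREBP2 acts mainly on cholesterol genes and SREBP1 mainly on fatty acid genes, and *INSIG1* is itself a target of the system, whereas *INSIG2* is known as much less dependent on it. The liver X receptor LXRα, the product of *NR1H3*, senses oxysterols, which arise when sterol is plentiful, and switches on cholesterol export through *ABCA1* and *ABCG1* as well as *MYLIP*, a ubiquitin ligase of lipoprotein receptors.

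The libraries held between 43176600 and 54512400 alignments, and *TBX3* itself stood at 8.24 and 8.52 RPKM in EV, 11.4 and 13.1 RPKM in TBX3iso1, and 15.5 and 17.5 RPKM in TBX3iso2. Among members, replicates of the same line differed by a median of 0.0756 in EV, 0.123 in TBX3iso1 and 0.158 in TBX3iso2 on the log2 scale, in either direction, and the widest gap, 0.471, was that of *ABCA1* in TBX3iso2. All 6 breast epithelial markers reached 0.5 RPKM, with summed levels of 2805 to 2898 RPKM in EV, 2356 to 2612 in TBX3iso1 and 2752 to 3123 in TBX3iso2. Of the 5 fibroblast markers only *COL1A1* reached it, and their sum was 4.56 to 4.81 RPKM in EV, 7.76 to 8.41 in TBX3iso1 and 7.10 to 7.52 in TBX3iso2. Of the 4 endothelial markers only *PECAM1* reached it, and their sum was 7.37 to 7.73 RPKM in EV, 1.34 to 1.36 in TBX3iso1 and 1.26 to 1.46 in TBX3iso2. Of 4 leukocyte markers in the table only *CD68* reached it, and their sum was 43.2 to 44.2 RPKM in EV and 34.0 to 34.3 in the other lines. None of the 2 adipocyte or 3 hepatocyte markers in the table did. Hepatocyte markers summed to at most 0.0864 RPKM, and adipocyte markers to 0.300 to 0.397 RPKM in EV, 0.0331 to 0.0340 in TBX3iso1 and 0.118 to 0.124 in TBX3iso2. All libraries came from transfected cultures of the same breast line, so these sums are levels of marker genes and not counts of cell types. Besides *PECAM1*, endothelial markers stayed at or below 0.187 RPKM (*KDR*) in every library. Besides *CD68*, leukocyte markers stayed at or below 0.0642 RPKM (*LYZ*). The part of these marker levels in the results on sterol genes was not tested. Bulk RNA does not show whether fewer cells of a line carry a transcript or each cell carries less.

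The sterol genes were mostly lower in both TBX3 lines than in EV. In TBX3iso1, 15 of the 30 tested members fell and 2, *PMVK* and *INSIG2*, rose. The call required a limma adjusted p (Benjamini-Hochberg over all 12805 genes tested) under 0.05 and a fold change over 1.5. These 17 members are 56.7% of those tested, against 21.5% of all genes tested (7.46% higher and 14.1% lower). In TBX3iso2, 15 of 30 fell and 0 rose, which is 50% of those tested, against 21.2% of all genes (8.94% higher and 12.3% lower). At an unadjusted p under 0.05 by limma, 2 members were higher in TBX3iso2 and 21 lower, against 3425 and 3435 of all 12805 genes tested. The median log2 fold change over the members tested was -0.53 in TBX3iso1 and -0.57 in TBX3iso2, where that over all genes tested was -0.05 and 0.00. Both TBX3iso1 libraries lay below both EV libraries for 25 of the 30 and above them for 4, shares that were 44.1% and 34.3% among all genes tested. For TBX3iso2 the counts were 24 below and 2 above, against 37.2% and 37.5% of all genes. Both comparisons rest on the same EV libraries, so they are not independent of each other. After quantile normalization the calls over all genes shifted from 955 higher and 1802 lower to 1259 higher and 1313 lower in TBX3iso1, while 15 members were still called there and 16 in TBX3iso2.

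**Figure D1:**
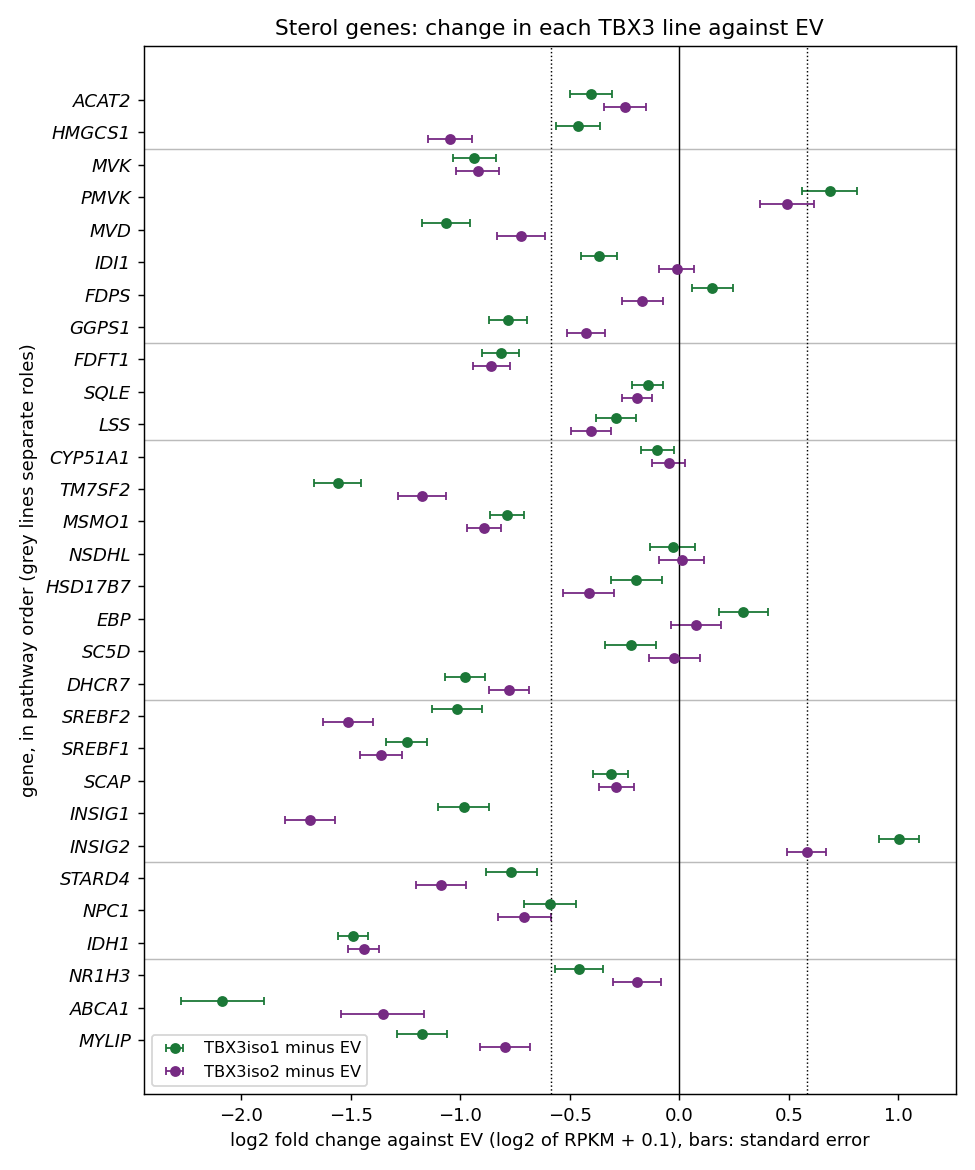
Log2 fold change of the 30 tested sterol genes in TBX3iso1 (green) and TBX3iso2 (purple) against EV, in pathway order from top to bottom. Points are limma estimates on log2(RPKM + 0.1), bars are standard errors and dotted lines mark a fold change of 1.5. Most points lie left of 0, with *PMVK* and *INSIG2* on the right in both lines.

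Along the synthesis route the falls were uneven: steps that dropped to about 50% of the EV level stood next to steps that were not called. Certain uncalled steps passed the adjusted p and missed only the 1.5-fold limit. Of the 19 enzymes, 7 fell and 1 rose in TBX3iso1, and 7 fell and 0 rose in TBX3iso2 (1 higher at an unadjusted p under 0.05 by limma), with medians of -0.37 and -0.40 on the log2 scale. Against 21.5% and 21.2% of all genes, 42.1% and 36.8% of these enzymes were called. Their summed level, a rough measure that the abundant *FDPS* and *DHCR7* weigh on most, was 451.0 ± 11.4 RPKM in EV, 373.6 ± 22.0 in TBX3iso1 and 359.5 ± 19.5 in TBX3iso2 (SD, n = 2), which is 82.8% and 79.7% of EV.

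The opening steps build HMG-CoA, the last intermediate before mevalonate. *HMGCS1*, the cytosolic HMG-CoA synthase (chromosome 5 of GRCh37, 43287572 to 43313614, reverse strand), stood at 13.9 and 12.2 RPKM in EV, 9.44 and 9.41 RPKM in TBX3iso1, and 6.70 and 5.83 RPKM in TBX3iso2. The 3 lines did not overlap, and TBX3iso2 was lowest. *HMGCS1* fell in TBX3iso2 (log2 fold change -1.05 ± 0.101 SE, limma adjusted p = 0.000201), and in TBX3iso1 its difference of -0.46 (limma adjusted p = 0.00812) stayed under the 1.5-fold limit. *ACAT2*, the cytosolic thiolase that supplies acetoacetyl-CoA, was not called in either line, at 30.4 ± 1.10 RPKM in EV, 23.0 ± 1.71 in TBX3iso1 and 25.7 ± 2.83 in TBX3iso2 (SD, n = 2). By the annotation 37.7% of the exon bases of *HMGCS1* lie under an antisense RNA and 17.2% of those of *ACAT2* under *TCP1*, and the strand setting of the counting is not given in the sources used here.

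The 3 enzymes that turn mevalonate into isopentenyl diphosphate did not move together. *MVK*, mevalonate kinase, was at 20.8 and 19.2 RPKM in EV, 9.97 and 10.8 RPKM in TBX3iso1, and 9.77 and 11.3 RPKM in TBX3iso2. The TBX3 lines overlapped, and *MVK* fell in both, by 0.93 on the log2 scale (SE 0.0975, limma adjusted p = 0.000298) and by 0.92 (limma adjusted p = 0.000302). *PMVK*, the phosphomevalonate kinase that takes the next step, went the other way, with 15.0 and 13.1 RPKM in EV, 21.0 and 24.4 RPKM in TBX3iso1, and 17.9 and 21.9 RPKM in TBX3iso2. All 4 TBX3 libraries lay above both EV libraries. *PMVK* rose in TBX3iso1 (log2 fold change 0.69 ± 0.124 SE, limma adjusted p = 0.00359), and its difference of 0.49 in TBX3iso2 (limma adjusted p = 0.0147) stayed under the 1.5-fold limit. Without the replicate 2 library of TBX3iso1 the TBX3iso1 difference was 0.58 and no longer called, and in TBX3iso2 the gene was called without EV replicate 1 (0.59) or without TBX3iso2 replicate 1 (0.64). *MVD*, the decarboxylase that follows, was at 23.9 and 22.8 RPKM in EV, 10.8 and 11.5 RPKM in TBX3iso1, and 12.7 and 15.8 RPKM in TBX3iso2. It fell by 1.06 in TBX3iso1 (limma adjusted p = 0.000278) and by 0.72 in TBX3iso2 (limma adjusted p = 0.00159), the latter not called without TBX3iso2 replicate 1 (-0.56). Read as a ratio of levels per length, *PMVK* to *MVK* was 0.723 and 0.684 in the EV libraries, 2.11 and 2.25 in TBX3iso1, and 1.83 and 1.94 in TBX3iso2. *MVK* was the more abundant of these neighbouring kinases in EV and *PMVK* in every TBX3 library.

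Of *IDI1*, *FDPS* and *GGPS1*, which act on the isoprenoid diphosphates after *MVD*, only *GGPS1* was called, in TBX3iso1. *GGPS1*, which makes the geranylgeranyl diphosphate used to prenylate proteins, stood at 15.1 and 15.5 RPKM in EV, 8.33 and 9.43 RPKM in TBX3iso1, and 11.1 and 11.7 RPKM in TBX3iso2. It fell in TBX3iso1 (-0.78 ± 0.0863 SE, limma adjusted p = 0.000383) and lay below the 1.5-fold limit in TBX3iso2 (-0.42, limma adjusted p = 0.00588). By the annotation 37.3% of its exon bases are shared with another gene on the same strand, so its value is uncertain. *FDPS*, the farnesyl diphosphate synthase and the most abundant of the 19 enzymes, was at 76.8 and 76.7 RPKM in EV, 79.5 and 91.2 RPKM in TBX3iso1, and 64.7 and 72.0 RPKM in TBX3iso2, with limma adjusted p values of 0.222 and 0.178. *IDI1*, the isomerase before it, was at 77.4% of EV in TBX3iso1 and 99.2% in TBX3iso2. Both carry named pseudogenes, 8 for *FDPS* and 3 for *IDI1*, and up to 10 alignments were kept per read, so reads may be split between the copies.

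Squalene synthase, encoded by *FDFT1*, commits farnesyl diphosphate to sterols. Its level was 17.2 and 17.4 RPKM in EV, 9.50 and 10.1 RPKM in TBX3iso1, and 8.99 and 10.0 RPKM in TBX3iso2. All TBX3 libraries were well below EV and the TBX3 lines overlapped. *FDFT1* fell by 0.82 on the log2 scale in TBX3iso1 (limma adjusted p = 0.000273) and by 0.86 in TBX3iso2 (limma adjusted p = 0.000213). The 2 steps after it were not called: *SQLE*, the squalene epoxidase, was at 90.4% and 87.4% of EV, and *LSS*, the lanosterol synthase, at 81.8% and 75.4%, in TBX3iso1 and TBX3iso2.

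Of the 8 enzymes that turn lanosterol into cholesterol, *TM7SF2*, *MSMO1* and *DHCR7* fell in each line and the other 5 were not called. *TM7SF2*, a sterol reductase of the endoplasmic reticulum (chromosome 11, 64879317 to 64883856, forward strand), had the largest fall of the 19 enzymes, with 11.1 and 10.7 RPKM in EV, 3.79 and 3.48 RPKM in TBX3iso1, and 4.38 and 5.20 RPKM in TBX3iso2. The fall was 1.56 on the log2 scale in TBX3iso1 (SE 0.108, limma adjusted p = 4.75e-05), and in TBX3iso2 the log2 fold change was -1.17 (limma adjusted p = 0.000168). *MSMO1*, the methylsterol oxidase that acts soon after it, was at 22.7 and 24.1 RPKM in EV, 13.1 and 14.0 RPKM in TBX3iso1, and 12.8 and 12.3 RPKM in TBX3iso2. Its log2 fold changes were -0.79 (limma adjusted p = 0.000218) and -0.89 (limma adjusted p = 0.000123). *DHCR7*, which reduces 7-dehydrocholesterol to cholesterol and so closes the route, was at 56.2 and 49.2 RPKM in EV, 28.0 and 25.4 RPKM in TBX3iso1, and 30.8 and 30.6 RPKM in TBX3iso2. It fell by 0.98 (limma adjusted p = 0.000157) and by 0.78 (limma adjusted p = 0.000432).

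The remaining late enzymes kept between 74.5% and 123% of the EV level. *CYP51A1*, the lanosterol demethylase that opens this stretch, was at 38.6 and 38.6 RPKM in EV and between 34.1 and 38.0 RPKM in the TBX3 libraries, with limma adjusted p values of 0.316 and 0.628. *NSDHL*, the sterol dehydrogenase that works with *MSMO1*, overlapped with EV in both lines, at 15.1 ± 1.30 RPKM in EV, 14.8 ± 1.40 in TBX3iso1 and 15.2 ± 1.04 in TBX3iso2 (SD, n = 2). *HSD17B7*, the sterone reductase of the same complex, was at 87.0% and 74.5% of EV. The isomerase gene *EBP* was at 123% and 106%, and the desaturase gene *SC5D*, the lowest of the enzymes at 1.90 ± 0.0204 RPKM in EV (SD, n = 2), at 85.0% and 98.5%. Annotated genes on the same strand share 68.2% of the exon bases of *CYP51A1* and 36.4% of those of *EBP*, and *CYP51A1* and *HSD17B7* have named pseudogenes, which leaves these levels uncertain.

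**Figure D2:**
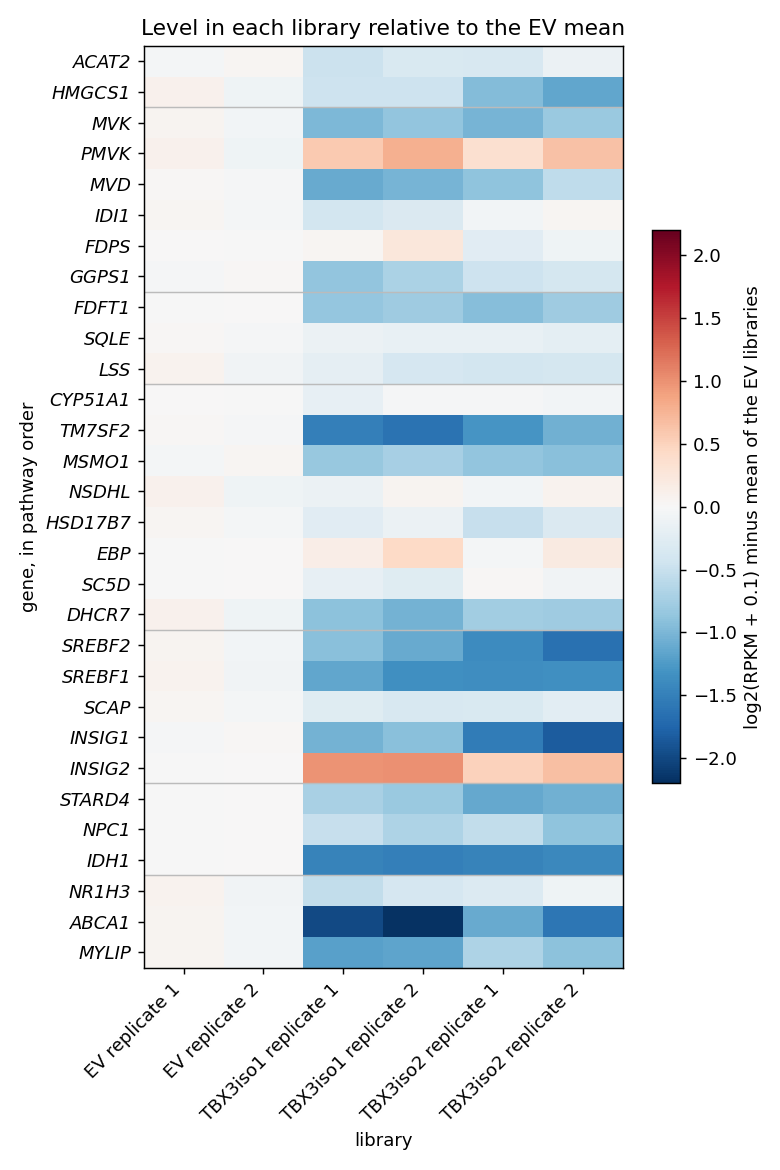
Level of the 30 tested sterol genes in each of the 6 libraries, as log2(RPKM + 0.1) minus the mean of the EV libraries. Rows are genes in pathway order, columns are libraries, blue is lower and red is higher than EV. *PMVK* and *INSIG2* are red in all 4 TBX3 libraries, while *TM7SF2*, *SREBF1*, *SREBF2*, *IDH1* and *ABCA1* are among the darkest blue rows.

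The SREBP system shifted as a set of opposed members: both SREBP genes and *INSIG1* were lower and *INSIG2* was higher. *SREBF2*, the gene of SREBP2 (chromosome 22, 42229109 to 42303310, forward strand), was at 19.8 and 18.4 RPKM in EV, 10.0 and 8.76 RPKM in TBX3iso1, and 7.24 and 6.03 RPKM in TBX3iso2. The lines did not overlap, and TBX3iso2 held 34.8% of the EV level where TBX3iso1 held 49.3%. *SREBF2* fell in both, with log2 fold changes of -1.02 ± 0.113 SE (limma adjusted p = 0.000398) and -1.51 (limma adjusted p = 6.45e-05). *SREBF1*, the gene of SREBP1 (chromosome 17, 17713713 to 17740316, reverse strand), was at 24.6 and 22.1 RPKM in EV, 10.4 and 9.12 RPKM in TBX3iso1, and 8.97 and 9.02 RPKM in TBX3iso2. Its fall was 1.24 in TBX3iso1 on the log2 scale (limma adjusted p = 6.96e-05), and its log2 fold change in TBX3iso2 was -1.36 (limma adjusted p = 4.93e-05). An antisense RNA, *SREBF2-AS1*, shares 9.08% of the exon bases of *SREBF2*. *SCAP*, the escort protein, stayed under the 1.5-fold limit at 80.4% and 81.8% of EV, although both differences passed the adjusted test (limma adjusted p = 0.0156 and 0.0212).

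The INSIG genes moved in opposite directions. *INSIG1* (chromosome 7, 155089486 to 155101945, forward strand) was at 10.7 and 11.1 RPKM in EV, 5.23 and 5.71 RPKM in TBX3iso1, and 3.69 and 2.99 RPKM in TBX3iso2. It fell by 0.98 in TBX3iso1 (SE 0.116, limma adjusted p = 0.000505), and in TBX3iso2 its log2 fold change was -1.68 (limma adjusted p = 4.73e-05), the lowest among the members in that line. *INSIG2* (chromosome 2, 118846028 to 118868573, forward strand) was at 4.52 and 4.55 RPKM in EV, 9.15 and 9.23 RPKM in TBX3iso1, and 6.46 and 7.24 RPKM in TBX3iso2. All TBX3 libraries lay above EV, TBX3iso1 the highest. *INSIG2* rose in TBX3iso1 (1.00 ± 0.0892 SE, limma adjusted p = 0.00014). In TBX3iso2 its log2 fold change of 0.58 (limma adjusted p = 0.00165) missed the limit of 0.585 narrowly. With all libraries kept it was called there after quantile normalization (0.67), with 0.01 RPKM as pseudocount (0.5905) or on unlogged RPKM (0.5939). It was also called without EV replicate 2 (0.5851) or without TBX3iso2 replicate 1 (0.66). The ratio of *INSIG1* to *INSIG2*, on the RPKM scale, was 2.36 and 2.44 in the EV libraries, 0.572 and 0.618 in TBX3iso1, and 0.571 and 0.414 in TBX3iso2, so *INSIG1* was the more abundant of the pair in EV and the less abundant in every TBX3 library.

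**Figure D3:**
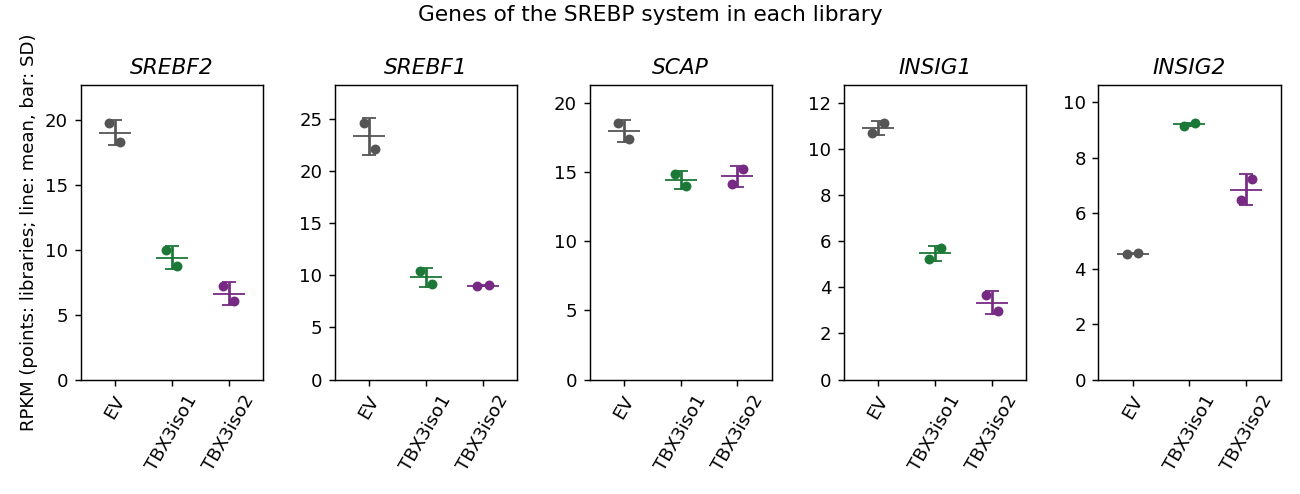
RPKM of *SREBF2*, *SREBF1*, *SCAP*, *INSIG1* and *INSIG2* in each line. Points are libraries, lines are means and bars are SD (n = 2), with each panel on its own axis from 0. *INSIG1* goes from 10.7 and 11.1 in EV to 3.69 and 2.99 in TBX3iso2, and *INSIG2* from 4.52 and 4.55 in EV to 9.15 and 9.23 in TBX3iso1.

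SREBPs bind sterol regulatory elements, commonly next to NF-Y, which binds CCAAT, and they can also bind the E-box CACGTG. RefSeq promoter windows (GRCh38.p14, 250 bases before to 50 after a gene start) were found for 28 of the 32 members, and not for *ACAT2*, *FDFT1*, *SQLE* and *ABCG1*. The windows of 4 genes are shown upstream of the annotated gene: *SREBF2* and *INSIG1* as genes of the SREBP system called in both lines whose windows hold CCAAT, *MVD* as a called enzyme, and *FDPS* as an enzyme that was not called. Each was found once on its chromosome in GRCh37, at chr22:42228859-42229108 (forward strand), chr7:155089338-155089485 (forward), chr16:88729570-88729749 (reverse) and chr1:155278407-155278538 (forward), and is written 5′ to 3′ on the strand of its gene. The windows of *MVD* and *FDPS* each hold 3 CCAAT boxes, and of those of *FDPS* only 1 lies whole in the part shown, since 118 bases inside the annotated gene are left out. Capitals mark the sterol regulatory element, searched as TCACNCCAC, and CCAAT, which reads ATTGG on the other strand.
SREBF2: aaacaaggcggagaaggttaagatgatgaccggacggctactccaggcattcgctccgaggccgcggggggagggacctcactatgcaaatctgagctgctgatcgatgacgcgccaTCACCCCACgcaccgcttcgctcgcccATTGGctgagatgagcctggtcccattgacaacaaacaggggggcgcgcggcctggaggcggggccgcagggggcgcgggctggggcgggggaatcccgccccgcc
INSIG1: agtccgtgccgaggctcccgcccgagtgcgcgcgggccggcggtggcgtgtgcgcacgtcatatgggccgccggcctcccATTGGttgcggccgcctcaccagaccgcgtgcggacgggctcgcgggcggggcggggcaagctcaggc
MVD: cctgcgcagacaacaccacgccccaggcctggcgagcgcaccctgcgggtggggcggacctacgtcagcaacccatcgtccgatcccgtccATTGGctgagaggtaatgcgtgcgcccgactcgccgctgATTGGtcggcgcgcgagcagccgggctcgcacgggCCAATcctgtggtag
FDPS: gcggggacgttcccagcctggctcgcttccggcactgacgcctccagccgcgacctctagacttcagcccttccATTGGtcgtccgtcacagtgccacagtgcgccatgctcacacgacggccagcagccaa
In the *SREBF2* sequence the element takes bases 118 to 126, and a CCAAT box on the other strand follows it. Both strands of the whole windows were searched. TCACNCCAC was in 1 of the 28 members, *SREBF2*, against 1.44% of the tested genes with a window, and a stricter form of 10 bases that holds the same site was again in *SREBF2* only, against 0.0422%. CCAAT was in 21 of 28 members (75.0%) against 43.4% of tested genes, and CACGTG in 5 of 28 (17.9%) against 12.5%. The T-box core GGTGTGA was in 0 of 28 members and in 4.06% of tested genes. This core does not match the T-box element that the study reports in *SNAI2*, the gene of SLUG. The study places TBX3 binding in *SNAI2* near an intron/exon junction, whereas only promoter windows were searched here. Whether members hold other forms of the T-box element, or are bound by TBX3, was not tested here. The study measured TBX3 binding on promoter arrays, which were not used here. The LXR element, AGGTCA repeated in tandem after NNNN, was in 0 of 28 members and 0.0106% of tested genes. A match is a description of letters in this window only, and members without CCAAT included the called genes *PMVK*, *SREBF1*, *INSIG2*, *NPC1* and *ABCA1*.

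Sterol transport and NADPH supply held the widest difference in level. *IDH1*, the cytosolic isocitrate dehydrogenase that yields NADPH for reductive synthesis (chromosome 2, 209100953 to 209130798, reverse strand), was the most abundant member in EV. It was at 136 and 139 RPKM in EV, 49.7 and 48.2 RPKM in TBX3iso1, and 49.7 and 51.5 RPKM in TBX3iso2. The TBX3 lines overlapped, and all 4 of their libraries were far below EV. *IDH1* fell by 1.49 on the log2 scale in TBX3iso1 (SE 0.0698, limma adjusted p = 9.06e-06) and by 1.44 in TBX3iso2 (limma adjusted p = 1.06e-05). The study chose *IDH1* for its own list of changed genes on these libraries, so its direction is not independent evidence. The study's list of genes regulated directly by TBX3 also required binding of both isoforms on promoter arrays, which were not used here.

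*STARD4* carries cholesterol between membranes in the cytosol. It was at 2.92 and 2.97 RPKM in EV, 1.76 and 1.62 RPKM in TBX3iso1, and 1.30 and 1.37 RPKM in TBX3iso2, with no overlap between lines. Its log2 fold changes were -0.77 (limma adjusted p = 0.00157) and -1.09 (limma adjusted p = 0.000304), the former not called with 1 RPKM as pseudocount (-0.55) or after quantile normalization (-0.56). *NPC1* moves cholesterol out of the lysosome. It was at 25.5 and 25.9 RPKM in EV, 18.1 and 16.0 RPKM in TBX3iso1, and 17.7 and 13.9 RPKM in TBX3iso2. Its fall in TBX3iso1 sat at the limit (-0.59 ± 0.12 SE, limma adjusted p = 0.00592) and was not called without EV replicate 2 (-0.58, limma adjusted p = 0.0512) or without TBX3iso1 replicate 2 (-0.50). In TBX3iso2 it fell by 0.71 (limma adjusted p = 0.00256), and was not called without TBX3iso2 replicate 2 (-0.53). *NPC1L1*, the sterol uptake protein of the intestine and liver, stayed at or below 0.126 RPKM in every library and was not tested.

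Of the 4 genes of the LXR arm, *ABCA1* and *MYLIP* fell in both lines, *NR1H3* was not called and *ABCG1* was not tested. *ABCA1*, which exports cholesterol to apolipoproteins (chromosome 9, 107543287 to 107690436, reverse strand), was at 2.32 and 2.15 RPKM in EV, 0.487 and 0.415 RPKM in TBX3iso1, and 0.977 and 0.677 RPKM in TBX3iso2. The 3 lines did not overlap, and TBX3iso1 was lowest at 20.2% of EV. *ABCA1* fell by 2.09 in TBX3iso1 (SE 0.19, limma adjusted p = 0.000156), and its log2 fold change in TBX3iso2 was -1.35 (limma adjusted p = 0.00108). At these low levels the size depends on the pseudocount, and with 1 RPKM the log2 fold changes were -1.16 and -0.83, both still called. *MYLIP* was at 5.54 and 5.12 RPKM in EV, 2.27 and 2.34 RPKM in TBX3iso1, and 3.29 and 2.79 RPKM in TBX3iso2. It fell in both lines, with log2 fold changes of -1.17 (limma adjusted p = 0.000218) and -0.80 (limma adjusted p = 0.00125). *ABCG1*, the partner exporter, was below the filter, at 0.408 and 0.413 RPKM in EV, 0.109 and 0.105 RPKM in TBX3iso1, and 0.229 and 0.105 RPKM in TBX3iso2. With no filter on low values its log2 fold changes were -1.30 (limma adjusted p = 0.0208) and -0.98 (limma adjusted p = 0.0435). *NR1H3*, the receptor gene itself, was not called, at 72.6% and 87.3% of EV.

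Compared with each other, the TBX3 lines differed in few sterol genes. *ABCA1* was higher in TBX3iso2 than in TBX3iso1, and *HMGCS1* and *INSIG1* were lower. These 3 of 30 are 10% of the members tested, against 6.29% of all genes (3.47% higher and 2.82% lower), and the median difference was -0.01 on the log2 scale, against 0.05 over all genes tested. After quantile normalization the calls over all genes went from 444 higher and 361 lower to 351 higher and 435 lower. *INSIG1* was lower by a log2 difference of -0.70 (limma adjusted p = 0.00815) and *HMGCS1* by -0.59 (limma adjusted p = 0.00941), while *ABCA1* was higher by 0.73 (limma adjusted p = 0.0402). *SREBF2*, with a log2 difference of -0.50 (limma adjusted p = 0.0263), and *INSIG2*, with -0.42 (limma adjusted p = 0.0206), stayed under the 1.5-fold limit. Each of the 3 calls was lost when certain single libraries were left out. *HMGCS1* was not called without TBX3iso1 replicate 1 (-0.58) or TBX3iso2 replicate 2 (-0.49), and *INSIG1* not without TBX3iso2 replicate 2 (-0.56). *ABCA1* was not called without TBX3iso1 replicate 1 (0.83, limma adjusted p = 0.0724), TBX3iso1 replicate 2 (0.64, limma adjusted p = 0.141) or TBX3iso2 replicate 1 (0.50, limma adjusted p = 0.119). *SREBF2* was called without TBX3iso1 replicate 2 (-0.59) or TBX3iso2 replicate 1 (-0.63). Without TBX3iso1 replicate 1 or TBX3iso2 replicate 2 the count was 1.

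**Figure D4:**
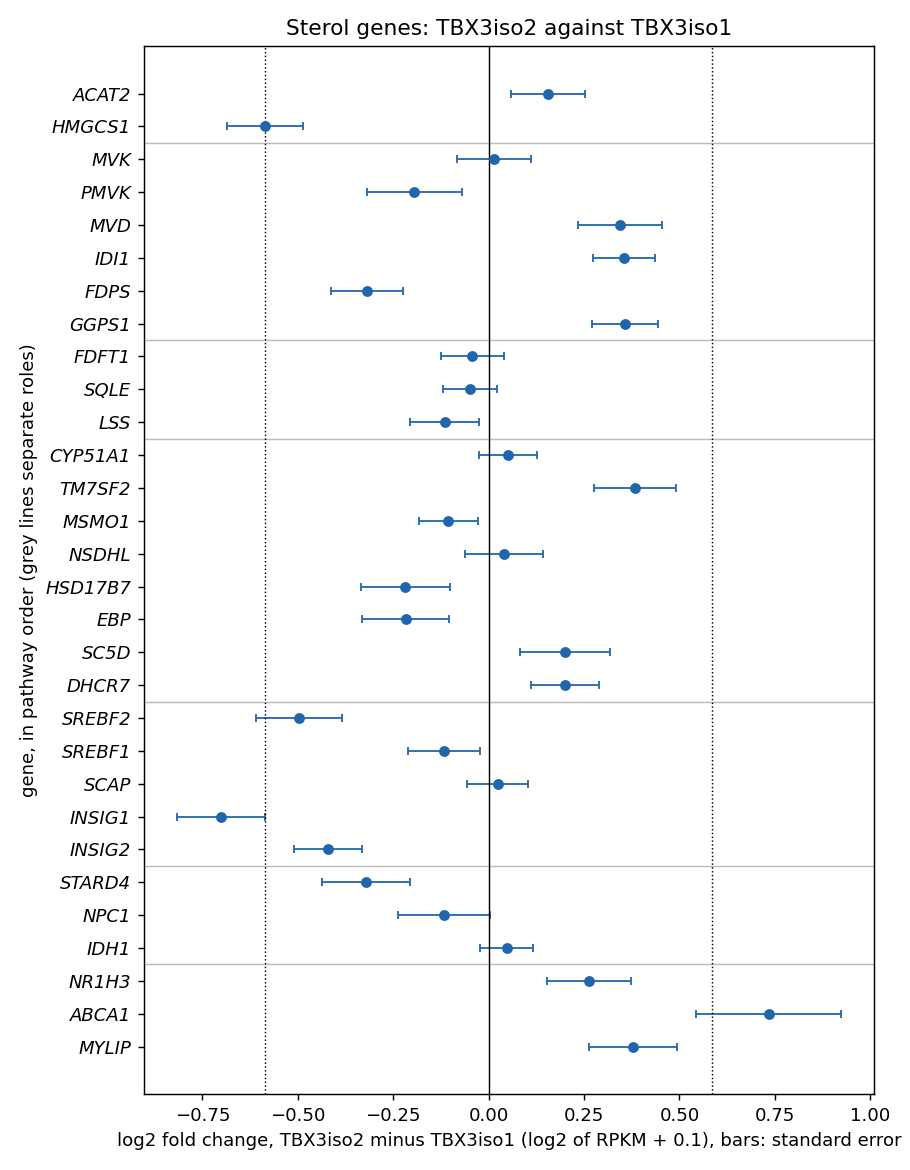
Log2 fold change of the 30 tested sterol genes in TBX3iso2 against TBX3iso1, in pathway order. Points are limma estimates on log2(RPKM + 0.1), bars are standard errors and dotted lines mark a fold change of 1.5. Only *HMGCS1*, *INSIG1* and *ABCA1* reach the dotted lines, at -0.59, -0.70 and 0.73.

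Lists of neighbouring pathways, chosen with earlier results known, were described in the same way. In the fatty acid arm of SREBP, 8 of the 16 tested genes (18 listed) fell and 0 rose in each line, with medians of -0.53 and -0.52. These calls are 50% of the list in each line, against 21.5% and 21.2% of all genes. *FASN*, the fatty acid synthase, was at 148 and 125 RPKM in EV, 38.8 and 29.5 RPKM in TBX3iso1, and 50.8 and 44.1 RPKM in TBX3iso2 (log2 fold changes -2.00, limma adjusted p = 5.84e-05, and -1.52, limma adjusted p = 0.0002). *SCD*, the stearoyl-CoA desaturase, was at 70.5 and 67.3 RPKM in EV, 20.2 and 18.8 RPKM in TBX3iso1, and 18.1 and 15.4 RPKM in TBX3iso2 (-1.82, limma adjusted p = 1.4e-05, and -2.04, limma adjusted p = 9.72e-06). The desaturase gene *FADS2* fell by 1.56 (limma adjusted p = 4.24e-05) and by 1.53 (limma adjusted p = 4.69e-05). At unadjusted p under 0.05 by limma, 1 gene of this list was higher in each line.

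Calls among the genes that process SREBPs or degrade their partners were no more frequent than the 21.5% and 21.2% of all genes. Of 11 genes of SREBP processing and sterol-regulated degradation, 1 fell in TBX3iso1 (9.09%) and 2 in TBX3iso2 (18.2%), 0 rose (0 and 1 higher at an unadjusted p under 0.05 by limma), and the medians were 0.01 and -0.02. *MBTPS1*, the Golgi protease that makes the first cut in SREBPs, was at 40.4 ± 1.41 RPKM in EV, 27.8 ± 1.44 in TBX3iso1 and 25.0 ± 1.54 in TBX3iso2 (SD, n = 2), and fell in TBX3iso2 (-0.69, limma adjusted p = 0.000429). *C12orf49*, which is needed for SREBP processing, fell in both (-0.65, limma adjusted p = 0.000675, and -0.64, limma adjusted p = 0.000702). The enzymes that use farnesyl and geranylgeranyl diphosphate had medians of 0.14 and 0.12. Of 14, 1 was higher and 0 lower in TBX3iso1 (1 lower at an unadjusted p under 0.05 by limma), and 2 higher and 1 lower in TBX3iso2. Their calls, 7.14% and 21.4%, were below or near the share of all genes. *FNTA*, the subunit shared by the farnesyl and geranylgeranyl transferases, was at 11.5 ± 0.736 RPKM in EV, 24.1 ± 1.82 in TBX3iso1 and 15.8 ± 0.12 in TBX3iso2 (SD, n = 2). It rose in TBX3iso1 (1.06, limma adjusted p = 8.7e-05) and stayed under the 1.5-fold limit in TBX3iso2 (0.46). *PDSS1*, which makes the side chain of ubiquinone, rose in TBX3iso2 (0.71, limma adjusted p = 0.000375). *PDSS2* of the same list went the other way. It fell in TBX3iso2 (-0.60, limma adjusted p = 0.000792) and was at -0.49 in TBX3iso1, under the 1.5-fold limit.

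Sterol uptake, esterification and transport was mixed, with 2 of 16 genes higher and 1 lower in TBX3iso1, 1 higher and 4 lower in TBX3iso2, and medians of -0.06 and -0.22. Calls were 18.8% and 31.2% of these genes, against 21.5% and 21.2% of all genes. *TMEM97*, a sterol-binding membrane protein known as a partner of NPC1 and as an SREBP target, went against most sterol genes. It was at 6.72 and 6.73 RPKM in EV, 14.5 and 16.8 RPKM in TBX3iso1, and 14.1 and 15.2 RPKM in TBX3iso2, and rose in both (1.20, limma adjusted p = 7.98e-05, and 1.11, limma adjusted p = 0.000115). *VLDLR* and *LRP1*, receptors of the same lipoprotein receptor family, each moved in 1 line. *VLDLR* rose in TBX3iso1 (1.13, limma adjusted p = 0.000638) and was at -0.19 in TBX3iso2, and it differed between the isoforms by -1.32 (limma adjusted p = 0.00148). *LRP1* fell in TBX3iso2 (-1.80, limma adjusted p = 0.000284) and was at -0.04 in TBX3iso1, and it differed between the isoforms by -1.77 (limma adjusted p = 0.00148).

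Of 11 tested genes (16 listed) of oxysterol synthesis, LXR partners and LXR targets, 1 rose and 4 fell in TBX3iso1, and 1 rose and 5 fell in TBX3iso2, with medians of -0.53 and -0.36. The share called was 45.5% and 54.5%, against 21.5% and 21.2% of all genes. *CYP27A1*, which makes an oxysterol from cholesterol, rose in both from a low level of 0.246 and 0.325 RPKM in EV to 0.983 and 1.11 RPKM in TBX3iso1, and 0.467 and 0.557 RPKM in TBX3iso2 (1.58, limma adjusted p = 0.000544, and 0.67, limma adjusted p = 0.0228). The EV mean of *CYP27A1*, 0.286 RPKM, was under the filter of 0.5 RPKM, which the gene passed only through the TBX3 lines. It is the gene counted as higher in each line, so those counts are not independent of the filter. The lipid transporter genes *ABCA2* and *ABCA7* fell in both lines. *ABCA2* had log2 fold changes of -1.65 (limma adjusted p = 0.000246) and -1.77 (limma adjusted p = 0.000179), and *ABCA7* of -1.54 (limma adjusted p = 0.000109) and -1.38 (limma adjusted p = 0.000179).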

How the data were processed

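Stranded mRNA libraries of the 6 samples were sequenced as paired ends on an Illumina HiSeq. The authors aligned the reads with TopHat to hg19, keeping at most 10 alignments per read, and deposited RPKM values made with Partek. The gene annotation and software versions are not given in the sources used here. The depth was between 43176600 and 54512400 alignments per library, and without gene counts the precision rests on the spread between replicates.

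From these, log2(RPKM + 0.1) was fitted by limma 3.58.1 in R 4.3.3, for 12805 genes that averaged 0.5 RPKM or more, with 1 mean per line, a variance trend and Benjamini-Hochberg adjustment. Calls followed the study's limits, a fold change over 1.5 at an adjusted p under 0.05. The script was tested on simulated data. The members and gene lists were chosen with earlier results of these data known. Named genes are the 32 members and, per neighbouring list, at most 3 genes called against EV with the largest change. *PDSS2* is named besides, as the gene called lower in its list. Certain genes under this rule were left out of the text. Gene coordinates are from GENCODE on GRCh37. Python 3.11.15 scanned the RefSeq promoter windows. Other settings tried were pseudocounts of 1 and 0.01 RPKM, filters at 0 and 2 RPKM, median-ratio and quantile scaling, fitting only the compared lines, a replicate block, no variance trend, unlogged RPKM in a plain linear model, and each library left out.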

Additional observations from a re-analysis of the deposited data

How the results depend on the processing

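The members called numbered 15 to 18 in TBX3iso1 and 13 to 16 in TBX3iso2 over the alternatives run. Of 485 recomputed values of the 35 member calls, 459 kept the call, 26 lost it and 0 changed sign. Between the isoforms the count of 3 became 0 with 1 RPKM as pseudocount and 0 in the linear model on unlogged RPKM without moderation. At an unadjusted p under 0.05, limma gave 7 members higher and 6 lower between the isoforms in the model of the report, against 2467 and 1479 of all 12805 genes tested. Leaving out each library in turn gave 15 to 17 members called in TBX3iso1, 14 to 16 in TBX3iso2, and 1 to 3 between the isoforms. With the replicate block, the members called were 17, 15 and 3, and 35 of 35 calls were kept. The labels link libraries of different lines only by a replicate number, and whether those were handled together is not stated. The correlations of their deviations from the line means were all positive. They were 0.220 for EV and TBX3iso1, 0.114 for EV and TBX3iso2, and 0.499 for the TBX3 lines. A filter at 2 RPKM removed members and left 30 of the 35 calls. *NPC1* in TBX3iso1 was also not called with 1 RPKM as pseudocount (-0.57), median-ratio scaling (-0.54), quantile normalization (-0.58) or unlogged RPKM (adjusted p = 0.0592), and *PMVK* in TBX3iso1 not with unlogged RPKM (adjusted p = 0.0872). *ABCA1* between the isoforms was also not called without the filter or with only the compared lines fitted. The cause of the lost calls was not tested. Gene counts were not used here, so counting error of low genes such as *ABCA1* and *STARD4* is not covered.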

Other observations

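HMG-CoA and acetoacetyl-CoA have fates other than mevalonate, among them ketone bodies. Of 6 tested genes of these fates (8 listed), 3 fell and 0 rose in TBX3iso1 (also 0 at an unadjusted p under 0.05 by limma), and 2 fell and 1 rose in TBX3iso2, with median log2 fold changes of -0.49 and -0.48. That is 50% called in each line, against 21.5% and 21.2% of all genes. *ACAT1*, the mitochondrial thiolase, was at 10.9 and 13.2 RPKM in EV, 9.91 and 12.3 RPKM in TBX3iso1, and 20.5 and 22.7 RPKM in TBX3iso2, and rose in TBX3iso2 (0.84, limma adjusted p = 0.0018). *BDH2*, a dehydrogenase, fell in TBX3iso1 (-0.70, limma adjusted p = 0.0152).

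Calls among 13 other genes of NADPH and isocitrate metabolism were near or below the 21.5% and 21.2% of all genes. In TBX3iso1 2 fell (15.4%) and in TBX3iso2 3 (23.1%), none rose, and the medians were -0.26 and -0.11. At unadjusted p under 0.05 by limma, 1 and 2 of them were higher. *IDH2*, the mitochondrial relative of *IDH1*, was at 158 and 154 RPKM in EV, 72.7 and 76.8 RPKM in TBX3iso1, and 83.2 and 91.4 RPKM in TBX3iso2 (-1.06, limma adjusted p = 7.3e-05, and -0.84, limma adjusted p = 0.000209). *POR*, the reductase that passes electrons from NADPH to squalene epoxidase and the lanosterol demethylase, fell by 1.04 (limma adjusted p = 5.9e-05) and by 0.96 (limma adjusted p = 8.34e-05). *NNT*, the mitochondrial transhydrogenase, fell in TBX3iso2 (-0.79, limma adjusted p = 0.00108) and was at -0.57 in TBX3iso1, under the 1.5-fold limit.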
